A study of Mus musculus with 10 samples.

Results

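Transcripts of 10 genes that mark homeostatic microglia, the resting state of the brain's resident macrophages, were compared between 1-year-old mice lacking the sorting nexin gene Snx14 and controls. The genes were chosen by name, for their known use as markers of this state, with earlier results of these data already known. All 10 were found among the 55536 mouse genes of the count tables. They are the surface receptors Csf1r, Cx3cr1, P2ry12, P2ry13 and Gpr34, the membrane proteins Tmem119, Siglech and Fcrls, the transcription factor Sall1 and the secreted protein Olfml3.

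Whole cerebellum and cerebral cortex were profiled by bulk RNA-Seq in 5 mice on the C57BL/6J background, each mouse giving 2 of the 10 libraries. Control mice 1 and 2 were labelled Het and control mouse 3 WT, and the sample labels call all 3 control, whereas the study's text names the comparison group WT. The 2 Snx14 KO mice were homozygous for a frameshift deletion of 1 bp in exon 14, carried in the germline and therefore present in every cell, microglia included. The labels name no Cre, drug or transgene, and all mice were 1 year old.

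Microglia depend on signalling through the receptor Csf1r, which binds the cytokines Csf1 and Il34, for their survival. They read neuronal signals through Cx3cr1, the receptor of fractalkine, and through purinergic receptors such as P2ry12 and P2ry13, which sense extracellular nucleotides, and TGF-beta signalling together with factors such as Sall1 holds them in the homeostatic state. When neurons degenerate, microglia typically lose homeostatic transcripts and gain a disease-associated set that includes Apoe, Lyz2 and Spp1. In bulk tissue, a transcript that is more abundant may come from more cells or from more RNA per cell, and the 2 cannot be told apart here.

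The libraries held between 16088310 and 22975355 counts in mouse genes. Snx14 itself had 44.2 and 41.4 CPM (counts scaled to library size, with TMM factors) in the Het cerebella, 76.0 in the WT cerebellum and 15.9 and 18.0 in the KO cerebella. In cortex it had 33.0 and 33.7 in Het, 48.7 in WT and 14.5 and 15.5 in KO, so all 10 libraries followed their labels. The summed CPM of 10 granule cell genes was between 5341 and 6213 in cerebellum and between 1086 and 1526 in cortex. That of 9 cortical excitatory neuron genes was between 533 and 772 in cortex and between 211 and 262 in cerebellum. Other markers varied among libraries of the same tissue label. The summed CPM of 8 choroid plexus genes was 1253 to 3562 in control cerebella and 66.1 and 3048 in KO cerebella. That of 10 striatum genes was 2104, 4588 and 1907 in control cortices 1, 2 and 3 against 1220 and 662 in KO cortices. Control cortex 2 was also the highest for 9 oligodendrocyte genes, at 8715 against 4701 and 4768 in the other controls.

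Each member occupies a single position in the GRCm38 genome with GENCODE M21 annotation. Those on chromosome 3 are Fcrls (ENSMUSG00000015852.13) at chr3:87250758-87263738, Olfml3 (ENSMUSG00000027848.12) at chr3:103722222-103738001, P2ry12 (ENSMUSG00000036353.13) at chr3:59216272-59262871 and its neighbour P2ry13 (ENSMUSG00000036362.2) at chr3:59207892-59210882, all on the minus strand. Tmem119 (ENSMUSG00000054675.5) lies at chr5:113793729-113800516, Cx3cr1 (ENSMUSG00000052336.7) at chr9:119901616-120069879 and Sall1 (ENSMUSG00000031665.7) at chr8:89027235-89044162, also on the minus strand. Siglech (ENSMUSG00000051504.18) at chr7:55768178-55778925 and Gpr34 (ENSMUSG00000040229.11) at chrX:13632089-13640858 are on the plus strand, as is Csf1r (ENSMUSG00000024621.16). P2ry12 and P2ry13 lie within the span of Med12l, and Gpr34 within that of Cask, each host being on the opposite strand. Reads were counted without regard to strand and could be given to more than 1 gene, so exonic overlap matters for Csf1r, of whose exonic bases 15.12% also belong to Hmgxb3, and little for Cx3cr1 (1.73%) and P2ry12 (0.35%). The other 7 members share no exonic base with another gene.

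Promoter windows from 250 bases before to 50 bases after the RefSeq start site (GRCm38.p6) were available for 7 of the 10 members. The letters GAGGAAG, a core bound by the macrophage factor PU.1, were searched on both strands. They were found in the windows of 2 members, Fcrls and P2ry13, among 9 windows in all, and in 13.6% of the 32851 windows of all genes. The Fcrls and P2ry13 windows are shown because they hold the match, and the P2ry12 window because this gene lies beside P2ry13 and holds none. The match is in capitals and is a description of the sequence only. It begins 144 bases before the RefSeq start site in Fcrls (chr3:87263475-87263774, minus strand). There it lies inside the span that GENCODE M21 gives the gene, which reaches chr3:87263738. In P2ry13 the match begins 48 bases before the start site (chr3:59210833-59211132, minus strand). The P2ry12 window is chr3:59262936-59263235 on the minus strand.
Fcrls: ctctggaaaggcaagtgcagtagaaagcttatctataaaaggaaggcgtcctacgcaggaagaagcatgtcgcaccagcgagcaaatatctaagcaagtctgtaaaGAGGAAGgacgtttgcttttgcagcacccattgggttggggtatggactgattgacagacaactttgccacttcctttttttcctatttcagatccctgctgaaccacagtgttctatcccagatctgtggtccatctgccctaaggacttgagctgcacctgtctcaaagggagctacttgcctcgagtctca
P2ry13: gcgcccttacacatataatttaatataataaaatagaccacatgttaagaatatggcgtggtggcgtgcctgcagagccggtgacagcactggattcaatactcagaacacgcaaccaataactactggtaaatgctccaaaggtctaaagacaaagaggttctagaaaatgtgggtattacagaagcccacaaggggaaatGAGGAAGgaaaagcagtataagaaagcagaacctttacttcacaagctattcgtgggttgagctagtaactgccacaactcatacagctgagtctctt
P2ry12: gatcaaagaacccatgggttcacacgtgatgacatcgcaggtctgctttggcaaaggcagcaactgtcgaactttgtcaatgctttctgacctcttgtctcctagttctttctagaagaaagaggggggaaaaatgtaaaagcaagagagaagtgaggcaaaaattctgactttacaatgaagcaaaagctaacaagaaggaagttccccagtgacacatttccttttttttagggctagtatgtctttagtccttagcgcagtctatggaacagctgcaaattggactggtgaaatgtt

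The first comparison asked how the members differ between the 2 tissues of control mice. All 10 were lower in cerebellum than in cortex, by a median of 1.67 on the log2 scale, and for all 10 the highest cerebellar library lay below the lowest cortical one. Such a separation in this direction held for 30.6% of the 19416 genes tested, whose median was 0.02. By the study's definition of a changed gene (adjusted p under 0.05 and a log2 change beyond 0.5 in either direction, here with edgeR's quasi-likelihood test and Benjamini-Hochberg adjustment), 40.5% of all genes differed between the tissues and 21.5% were lower in cerebellum, so such a call was common.

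Levels of different genes were compared per kilobase of exon (RPKM). In control cortex, Csf1r was the most abundant member, at 18.4 ± 1.10 RPKM (SD, n = 3), followed by P2ry12 at 14.9 ± 2.50. Tmem119 (11.8 ± 0.827), Cx3cr1 (11.1 ± 0.815) and Fcrls (9.59 ± 1.21) formed a run in which neighbours overlapped. Gpr34 (7.73 ± 1.01), P2ry13 (6.01 ± 0.769), Siglech (5.30 ± 0.352), Sall1 (4.26 ± 0.505) and Olfml3 (2.58 ± 0.275) followed, and of these only P2ry13 and Siglech overlapped as neighbours. In control cerebellum, the order began in the same way, with Csf1r at 7.52 ± 0.416, P2ry12 at 4.67 ± 0.425, Cx3cr1 at 3.58 ± 0.321 and Tmem119 at 3.50 ± 0.264, the last 2 overlapping. From Gpr34 (2.37 ± 0.762) through P2ry13, Fcrls, Sall1 and Siglech to Olfml3 (1.23 ± 0.183), every neighbour in the order overlapped the next.

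**Figure D1:**
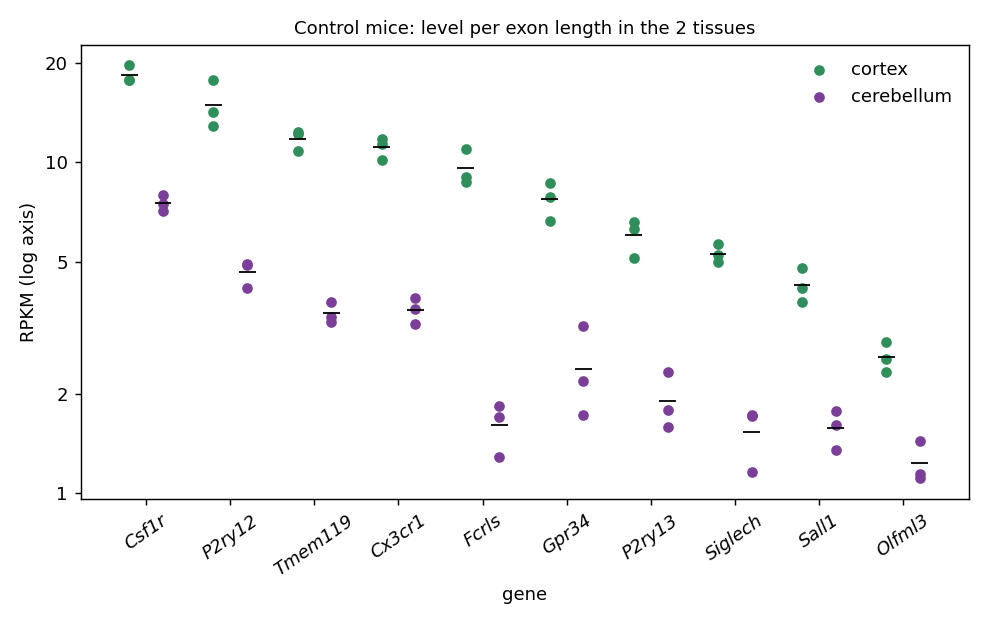
Level of each member in control mice, in RPKM on a log axis. Points are the 3 control libraries of each tissue and bars are means. Every cerebellar point lies below every cortical point of the same gene, and the gap is widest for Fcrls, at 9.59 RPKM in cortex and 1.61 in cerebellum on average.

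The size of the tissue difference was not the same for every member. Fcrls, an Fc receptor-like protein, was lower in cerebellum by a log2 change of -2.58 (SE 0.169, edgeR adjusted p = 3.73e-06), which placed it at 16.8% of its mean cortical level. Olfml3 had the smallest difference, at -1.07 (SE 0.1503, adjusted p = 0.000381), or 47.8% of cortex, and Csf1r the next at -1.29 (SE 0.0810), or 40.9%. The remaining 7 lay between -1.80 for Siglech and -1.43 for Sall1. Genes that microglia share with other macrophages showed the same direction with a smaller median. Of 18 general microglia genes, 17 were lower in cerebellum (median -1.07), the exception being Lyn, which was higher by 1.47. Of the 18 disease-associated genes tested, 11 had values above 0 and 7 below, with a median of 0.04, and 2 passed the test as higher and 5 as lower.

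The second comparison asked what loss of Snx14 did to the members in cerebellum, the tissue whose degeneration the study addressed. Fcrls rose 3.08-fold, and no other member passed the test. The members nonetheless lay mostly above controls, with 9 of 10 log2 changes above 0 against 50.2% of the 19447 genes tested, and a median of 0.32 against 0.000899. P2ry12 was the single member with a value below 0. The sign of 4 members (P2ry12, P2ry13, Gpr34 and Sall1) turned when 1 library was left out, and the number above 0 was then 6 (without KO 2) to 10 (without KO 1). None of the 10 fell, a call that 1.04% of all genes had.

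Fcrls had 4.44, 3.12 and 4.12 CPM in the 3 control cerebella and 13.04 and 11.0 CPM in the KO cerebella. Both KO libraries were thus well above every control. The log2 change was 1.62 (SE 0.186, edgeR adjusted p = 0.00437), which ranked 59 among the 19447 genes tested. By this call, 1.55% of all genes changed and 0.514% rose. On these counts, between 65 and 92 reads per control and 231 and 257 per KO library stood behind the values. The call held in all 10 alternative fits, including each one that left out a library, with log2 changes from 1.48 to 1.74.

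Another 4 members had both KO libraries above all controls, without passing the test after adjustment. Over all genes tested, 14.7% had that arrangement. Csf1r, the receptor for the survival signal, had 44.7, 42.7 and 47.6 CPM in controls and 54.2 and 56.5 in KO, a log2 change of 0.30 (SE 0.0772, edgeR adjusted p = 0.111). Tmem119, a membrane protein used to tell microglia from other macrophages, had 8.16, 7.93 and 9.13 CPM in controls and 10.8 and 11.3 in KO, which is 0.39 on the log2 scale (SE 0.137, adjusted p = 0.249). Olfml3, a secreted olfactomedin-like protein, had 7.29, 7.11 and 9.23 CPM in controls and 10.7 and 11.98 in KO, which is 0.53 (SE 0.162, adjusted p = 0.182). The controls of these 3 genes were close together and the gap to KO was small. Siglech, a membrane protein of the Siglec family, had 4.05, 6.05 and 6.02 CPM in controls and 6.32 and 7.83 in KO. Its log2 change was 0.40 (SE 0.215, edgeR adjusted p = 0.492), and its lower KO library lay just above the top control.

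**Figure D2:**
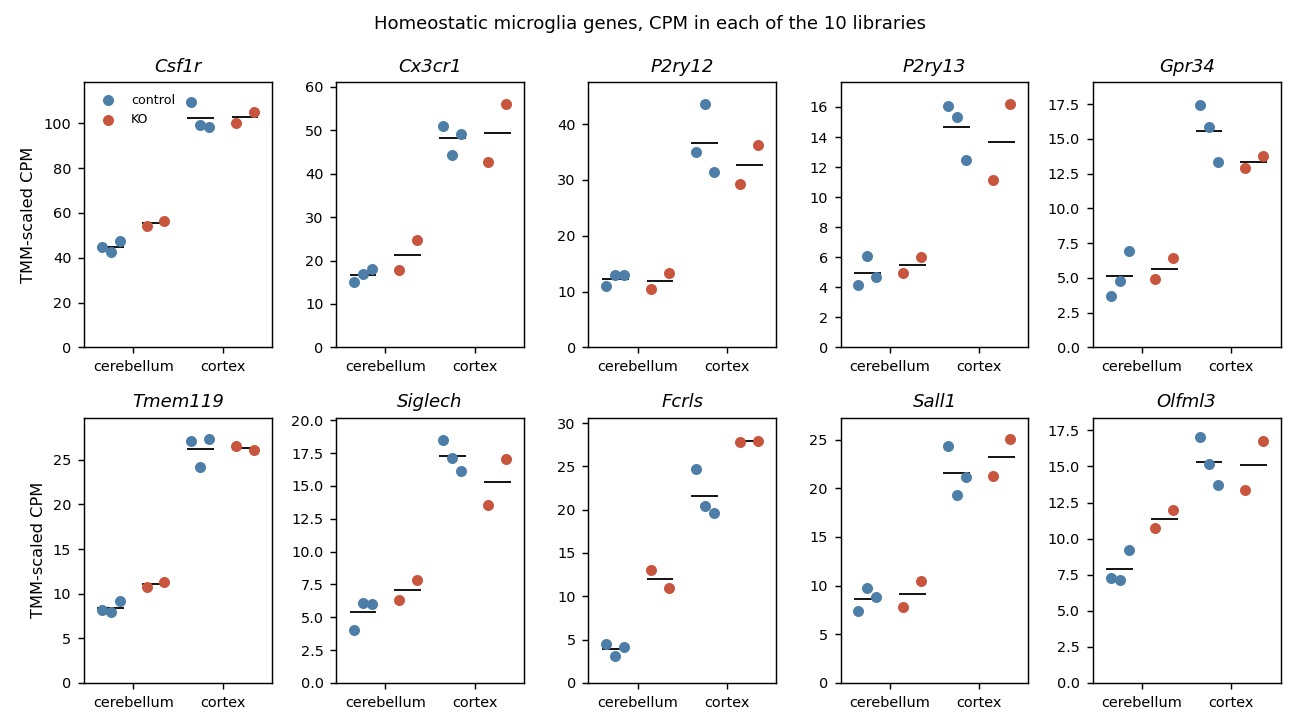
CPM of each member in every library, scaled within each tissue by the TMM method. Points are libraries, bars are group means, blue marks control and red marks KO. In cerebellum both KO points of Fcrls, Csf1r, Tmem119, Olfml3 and Siglech lie above the controls, while in cortex this is seen for Fcrls alone.

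The nucleotide and chemokine receptors overlapped between genotypes. P2ry12, which guides microglial processes toward injured cells, had 11.0, 13.02 and 12.98 CPM in controls and 10.4 and 13.4 in KO, so the KO libraries enclosed the controls. P2ry13 had 4.15, 6.10 and 4.70 CPM in controls and 4.97 and 5.99 in KO. Their log2 changes were -0.05 (SE 0.157) and 0.14 (SE 0.210), with edgeR adjusted p of 0.940 and 0.859. Gpr34, a receptor for lysophosphatidylserine, had 3.72, 4.76 and 6.97 CPM in controls, the widest control range among the members for its level, and 4.91 and 6.42 in KO. Cx3cr1 had 15.1, 16.9 and 18.2 CPM in controls and 17.9 and 24.7 in KO, which is 0.35 (SE 0.154, adjusted p = 0.372), in which the higher KO library stood apart from the other 4. Sall1, the transcription factor, had 7.38, 9.71 and 8.81 CPM in controls and 7.79 and 10.4 in KO, with a log2 change of 0.08 (SE 0.184). The SE of these 5 genes was 0.154 to 0.268, and none passed after adjustment.

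Before adjustment, 5 of the 10 members had an edgeR p under 0.05 in cerebellum, namely Fcrls, Csf1r, Olfml3, Tmem119 and Cx3cr1, against 13.4% of all genes. Mouse KO 2 was higher than mouse KO 1 for 9 of 10 members, with Fcrls the exception. KO 2 was also the higher of the pair for 9 of 10 members in cortex, there with Tmem119 as the exception. Over all genes tested, KO 2 was the higher for 50.4% in cerebellum and 50% in cortex. The control mice did not keep their order between tissues. Control 1 was above its group's mean log2 CPM for 1 member in cerebellum and 9 in cortex, and control 3 for 9 and 2.

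**Figure D3:**
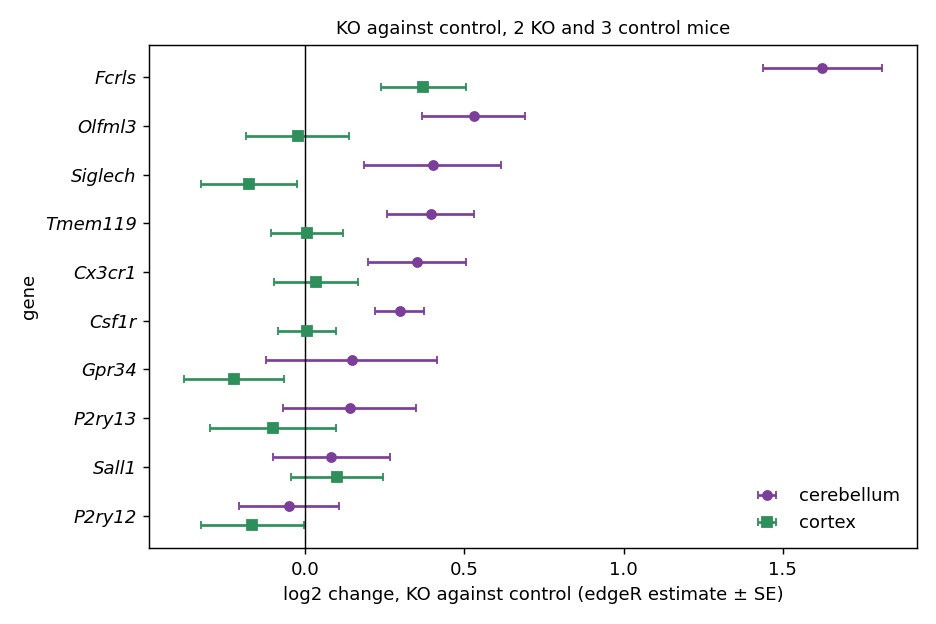
Log2 change of each member between KO and control, with the edgeR estimate as a point and its SE as a bar, for cerebellum (circles) and cortex (squares). Fcrls in cerebellum stands at 1.62 and the other cerebellar values between -0.05 and 0.53, while the cortical values lie between -0.22 and 0.37.

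In cortex, the third comparison, no member passed the test. Of the log2 changes, 5 were above 0 and 5 below, with a median of -0.00808. No gene among the 19202 tested passed in cortex by edgeR (0%), where 5.93% had an unadjusted p under 0.05, and DESeq2 called 49 genes with no member among them. Snx14 itself had a log2 change of -1.36 in cortex and an edgeR adjusted p of 0.754, so the targeted gene did not pass there either. Both KO cortices, at 14.5 and 15.5 CPM, were nevertheless below every control cortex, at 33.0 to 48.7 CPM. The study, which used DESeq2, reported Snx14 as lower in all KO samples.

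Fcrls was again at the top, with 24.7, 20.4 and 19.6 CPM in control cortices and 27.9 in both KO cortices. Both KO libraries exceeded all controls, as for 11.9% of genes, and the log2 change was 0.37 (SE 0.133, edgeR adjusted p = 0.796). Gpr34 had the lowest change, at -0.22 (SE 0.156), with 17.5, 15.8 and 13.3 CPM in controls and 12.9 and 13.8 in KO. P2ry12 had 34.9, 43.6 and 31.4 CPM in controls and 29.3 and 36.2 in KO, a log2 change of -0.16 (SE 0.163). For the other 9 members the ranges of the genotypes overlapped, and the KO pair enclosed the controls of Cx3cr1 and P2ry13. Csf1r (109, 99.1 and 98.3 CPM in controls and 100.1 and 105 in KO) and Tmem119 (27.2, 24.2 and 27.3 in controls and 26.6 and 26.1 in KO) had log2 changes of 0.01 or less. The remaining members, Sall1, Cx3cr1, Olfml3, P2ry13 and Siglech, lay between -0.18 and 0.10. Striatum genes differed between the same cortical libraries, with all 10 lower in KO and a median log2 change of -1.72, none passing adjustment. All 8 endothelial genes (median 0.51) and all 10 fibroblast and mural genes (0.32) lay above 0, against 50.2% of all genes. All 9 oligodendrocyte genes lay below 0 (-0.36), and none of these lists had a call. The part of these differences in the cortical values of the members, and in the tissue comparisons that use them, was not tested.

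The difference of the KO effect between the tissues was above 0 for all 10 members, with a median of 0.37, against 55% of the 20614 genes tested and a median of 0.03. Only 0.102% of those genes passed at an adjusted p under 0.05, and in this fit no member did. Fcrls had the largest difference, at 1.27 (SE 0.230, edgeR adjusted p = 0.0934). When the 2 tissues of each mouse were paired by a block for the animal, which the labels support, its difference was 1.28 (SE 0.189) and passed with an adjusted p of 0.0175, and it also passed by DESeq2 (adjusted p = 0.000452). Csf1r, Tmem119, Olfml3 and Siglech had unadjusted p values between 0.0155 and 0.0478, where 8.28% of all genes were under 0.05, and none passed adjustment with or without the block. For Sall1 the difference was 0.00362 (SE 0.237), and its sign varied with the scaling.

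Within single mice, the cerebellar level of Fcrls was 16.8%, 14.2% and 19.4% of the cortical level in the 3 controls and 44.5% and 36.8% in the KO mice. The KO mice thus stood within the range of the other members' shares, whose group means were between 28.9% and 47.8% in controls and between 34.2% and 70.9% in KO. Both KO mice were above every control mouse in this ratio for 6 members, Fcrls, Siglech, Tmem119, Cx3cr1, Csf1r and Olfml3, an arrangement seen in 15.8% of 20216 genes, and none had both below, as 12% did. For Tmem119 the ratio was 28.0% to 30.8% in controls and 38.5% and 40.5% in KO, and for Csf1r 38.1% to 44.8% in controls and 50.2% and 51.4% in KO. P2ry12, P2ry13, Gpr34 and Sall1 overlapped. The tissue gap of P2ry12, for example, ran from 27.8% to 38.2% in controls and was 33.7% and 34.6% in KO.

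**Figure D4:**
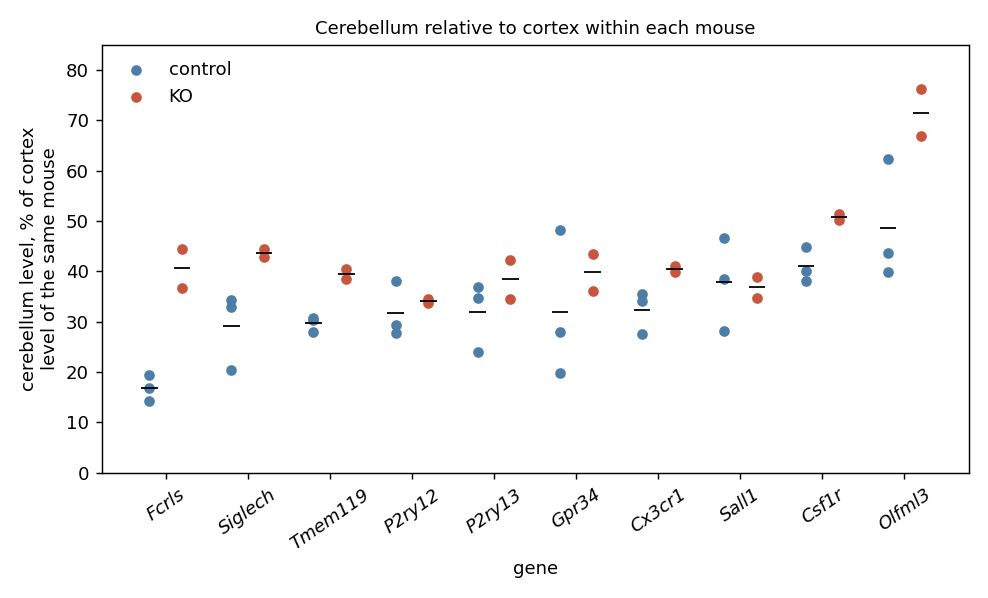
Level of each member in cerebellum as a percentage of the level in the cortex of the same mouse. Points are mice, bars are group means, blue marks the 3 control mice and red the 2 KO mice. Fcrls lies between 14.2% and 19.4% in controls and at 36.8% and 44.5% in KO, and 4 members overlap between genotypes.

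Other genes of microglia gave a frame for these values in cerebellum. Of 15 further homeostatic genes, 13 had log2 changes above 0 and 1 rose, the adhesion receptor Adgrg1, by 0.70 (SE 0.0981, edgeR adjusted p = 0.0129). Of 18 general microglia and macrophage genes, 17 lay above 0, with a median of 0.45. The complement subunits C1qa (0.85, adjusted p = 0.00889) and C1qb (0.65, adjusted p = 0.00885) rose. C1qa had 23.6, 28.8 and 29.2 CPM in controls and 52.5 and 45.4 in KO, with no overlap. Of 19 disease-associated genes, 18 lay above 0, with a median of 0.76, and 3 rose. These were the lysozyme gene Lyz2 (1.37), the osteopontin gene Spp1 (1.18) and the lipid carrier Apoe (0.65), with edgeR adjusted p of 0.000591, 0.0328 and 0.0125. The median of the 10 homeostatic members, 0.32, was below the medians of both of these lists, and these differences between lists were not tested. In cortex no gene of these lists passed, and the medians of the general and disease-associated lists were -0.00840 and -0.0160. Of the 17 disease-associated genes tested there, 6 lay above 0 and 11 below. Lyz2 was nevertheless higher in both KO cortices, at 14.0 and 15.5 CPM, than in control cortices, at 7.29 to 8.41 CPM. Both KO cortices exceeded all controls for 11.9% of all genes. The cells carrying the transcripts named here, such as Apoe, Spp1 and Adgrg1, were not determined, and 4 of 10 astrocyte genes also rose in cerebellum.

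**Figure D5:**
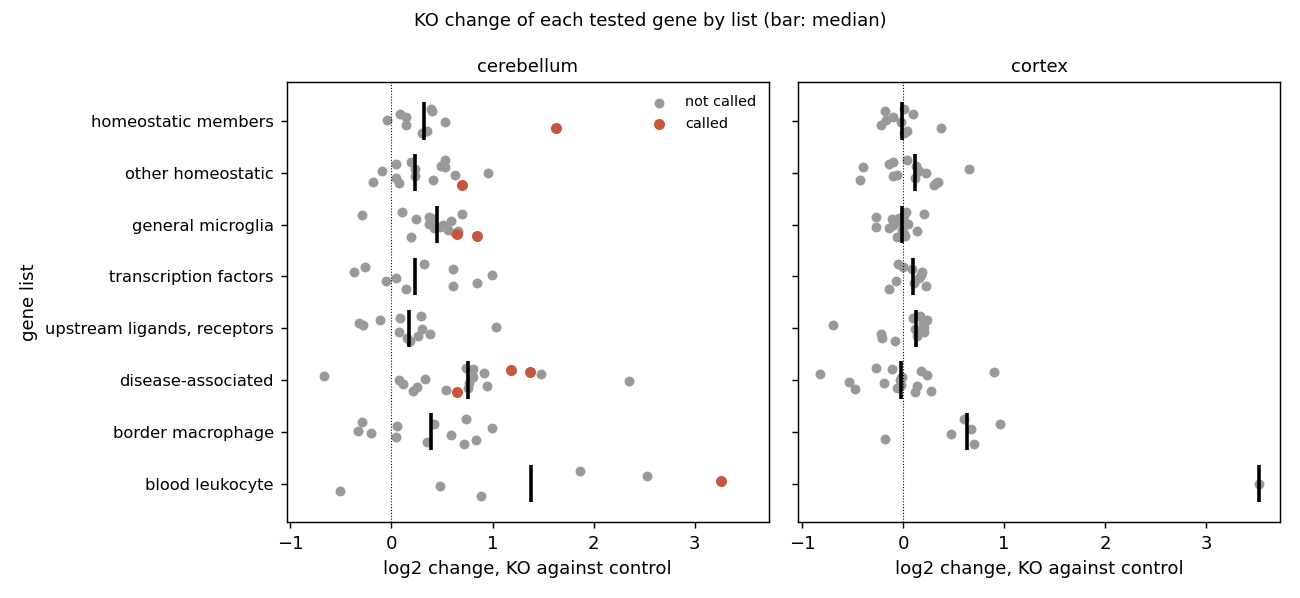
Log2 change between KO and control for every tested gene of 8 lists, in cerebellum (left) and cortex (right). Points are genes, red marks those that passed the test and black bars are list medians. In cerebellum the member median is 0.32 and that of the disease-associated genes 0.76, and in cortex no gene is red.

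Measured against the summed CPM of the 18 general microglia genes, in a comparison added after the values were seen, most genes were lower in KO cerebella. Both KO cerebella were below every control in this ratio for 69.2% of the 19447 genes tested and above for 1.33%. Fcrls was the 1 member above, at 1.39% of that sum on average in control cerebella and 3.12% in KO cerebella. P2ry12 was 4.37% in controls and 3.10% in KO, and Sall1 3.05% and 2.38%, and for each the KO libraries lay under every control. The other 7 overlapped. In cortex, Fcrls was above (4.37% and 5.76%), Gpr34 was below (3.14% and 2.75%) and the other 8 overlapped, counts near the 10.1% of genes above and 9.84% below. As a sum, the 10 members were 0.427, 0.403 and 0.428 of the general sum in control cerebella and 0.361 and 0.421 in KO, and between 0.577 and 0.700 in all 5 cortices.

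The factors and signals that act on these genes were listed as well. None of 10 microglial transcription factors passed in cerebellum. Mef2c, which neurons also express, had the smallest p with a log2 change of -0.37 (adjusted p = 0.0672), and Cebpa had 0.60 (adjusted p = 0.147). Spi1, which encodes PU.1, had 0.32 (SE 0.322). None of 12 ligands, receptors and activators upstream of the members passed either. Nrros, which anchors latent TGF-beta on microglia, had the smallest p with a log2 change of 1.03 (adjusted p = 0.0543), and Itgb8, an integrin subunit that activates TGF-beta, had 0.31 (adjusted p = 0.357). The Csf1r ligands Csf1 and Il34 had 0.19 and 0.38, and the Cx3cr1 ligand Cx3cl1 had 0.15, with no call. In cortex the ligand list was led by Nt5e, which makes adenosine, at -0.69 (edgeR adjusted p = 0.796), and Il34 at -0.22. All 10 striatum genes were also lower in these KO cortices, and the part of that difference in the values of this list was not tested.

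Markers of other cells that a dissected cerebellum could hold also differed between the genotypes. Of 12 genes of border-associated macrophages, 9 had log2 changes above 0 and none passed, with Stab1 at 0.74 and Mrc1 at 0.99. Their summed CPM was 12.97 to 27.5 in control cerebella and 30.3 to 31.3 in KO, and none of the 12 was at 0 throughout. Of 13 blood leukocyte genes only 6 were abundant enough to test. The neutrophil granule gene Ngp rose by 3.26 (edgeR adjusted p = 0.0114), with 5 or 6 reads per control and 27 and 91 in KO. The controls were under the filter's minimum count of 10, so Ngp entered the test through its high KO libraries alone. Its call is therefore not independent of the filter. The summed CPM of the 13 genes was 2.90 to 3.80 in control cerebella and 8.98 to 15.8 in KO cerebella. Of the 13, 6 had no count in at least 1 cerebellum. In cortex the sum was also higher in KO, at 2.21 to 5.27 against 0.823 to 1.499 in controls. There 10 of the 13 had no count in at least 1 library, and only 1 was tested, without passing. Of 10 fibroblast and mural genes in cerebellum, 9 had log2 changes above 0, 5 had both KO libraries above all controls and none passed. Their median of 0.32 equals the members' to 2 decimals. Their summed CPM was 139.8 to 177 in controls and 189.8 to 231 in KO. All 10 Purkinje cell genes fell, with a median of -1.12, and 4 of 10 astrocyte genes rose. The part of these shifts in the values of the members was not tested.

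Across the 10 libraries the members followed each other closely, mostly through the tissue difference that they share. Pearson's r of log2 CPM had a median of 0.96 over the 45 pairs, from 0.82 to 0.997. After each group's mean was taken out, the median r was 0.51, from -0.40 to 0.90, and 37 of 45 pairs were above 0. Fcrls differed here, with a mean r of -0.05 with the other 9, whereas the other members had mean values from 0.26 for Tmem119 to 0.60 for Olfml3. These points share animals and library scaling, and the deviations of the 2 KO libraries of a tissue mirror each other. Fcrls and Tmem119, with the lowest mean r, were also the exceptions to KO 2 being the higher, in cerebellum and in cortex. The r values are given as a description. The 5 other genes whose profile over the 10 libraries was closest to the members' mean, among 20604 ranked by Pearson's r, were Elavl2 (0.997), Gpsm2 (0.996), Hs3st2 (0.995), Gm28592 (0.994) and Phlda1 (0.994). All 5 were lower in control cerebellum than in control cortex, from -6.09 on the log2 scale for Hs3st2 to -1.38 for Gpsm2, and none passed the KO test in either tissue.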

How the data were processed

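RNA was extracted with TRIzol from cerebellum and cortex, and strand-specific libraries were sequenced by a commercial provider. The deposited values are counts per gene, which the authors made by trimming reads, aligning them to GRCm38 with STAR v2.7.3a and counting with featureCounts (Subread 2.0.1), 1 table per library, without strand and with reads allowed to count for overlapping genes. From these, 55536 mouse gene rows were kept. The other 26345 rows of each table held 0.16% to 0.926% of counts and were left out of totals and tests. No further value columns were present.

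Genes passing filterByExpr (minimum count 10) were fitted with edgeR 4.0.16 (R 4.3.3), TMM scaling and the quasi-likelihood F test, with Benjamini-Hochberg adjustment over all genes tested. SE is the log2 change divided by the square root of F. A call needed an adjusted p under 0.05 and an absolute log2 change over 0.5, or for the tissue difference of the KO effect an adjusted p under 0.05 alone. CPM were TMM-scaled within tissue, and RPKM were scaled over all 10 libraries and divided by annotated exon length. Alternatives were DESeq2 1.42.0, RLE scaling, library totals, no filter, each library left out, and a block for the animal or mouse number. The code was tested on simulated data.

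Mouse numbers in the labels tie the 2 tissues of an animal, and same-animal deviations from group means correlated with r from 0.283 to 0.511. The value 0.511 stands for both KO mice, since deviations from a mean of 2 mirror each other. The members and gene lists were chosen with earlier results of these data known. From each immune or upstream list, called genes were named, else the 2 with the smallest p, and ligands, Spi1 and other genes beyond that after their values were seen. Other cell types are given as counts.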

Additional observations from a re-analysis of the deposited data

How the results depend on the processing

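With 2 KO mice, calls over all genes varied widely. Calls of the members within a tissue did not change. For the tissue difference of the KO effect, that of Fcrls did. In cerebellum 302 genes passed, against 432 by DESeq2, 842 with no filter on low counts, 181 with the mouse number as a replicate block, and 133 (without control 1) to 400 when 1 library was left out. Control 3 and KO 1 also moved it by over 1.5 times, to 179 and 174 without them. Fcrls was the 1 member called in each of these fits, with an edgeR or DESeq2 adjusted p of at most 0.0340. In cortex 0 genes passed, against 49 by DESeq2, 380 with no filter, 3 with the replicate block and 0 to 98 with a library left out (98 without control 2, 7 without KO 2), and no member passed in any fit. For the tissue difference of the KO effect 21 genes passed, against 221 by DESeq2, 599 with no filter, 128 with the animal as a replicate block and 3 to 117 with a library left out. Among cerebellar libraries, dropping control 1 gave 10, control 3 gave 11, KO 1 gave 36 and KO 2 gave 6. Among cortical ones, control 2 gave 117, control 3 gave 11, KO 1 gave 8 and KO 2 gave 3. There 1 member, Fcrls, passed by DESeq2 (adjusted p = 0.000452), with no filter (3.08e-05), with the animal block (0.0175) and without cortex control 2 (0.0420), and between 0 and 1 member over all left-out libraries. The cause was not tested. The mouse numbers of controls and KO name different animals (r of deviations 0.00490 to 0.154), so that block only shares a number.

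Signs changed only where the main log2 change lay between -0.10 and 0.15, but the values with a library left out reached further from 0. In cortex Csf1r was -0.0202 with the replicate block. For the tissue difference Sall1 was -0.0153 by DESeq2, -0.0165 with RLE scaling, -0.0142 with library totals, -0.00139 with no filter and -0.00973 with the animal block. With a library left out, the cerebellar log2 changes ran from -0.25 to 0.11 for P2ry12, -0.00692 to 0.31 for P2ry13, -0.15 to 0.27 for Sall1 and -0.0653 to 0.42 for Gpr34. The cortical ones ran from -0.19 to 0.13 for Olfml3, -0.0492 to 0.0370 for Tmem119, -0.18 to 0.22 for Cx3cr1, -0.0326 to 0.0501 for Csf1r, -0.39 to 0.15 for P2ry13 and -0.0232 to 0.22 for Sall1. The tissue differences ran from -0.0586 to 0.30 for P2ry12 and -0.23 to 0.19 for Sall1. The lower level of all 10 members in control cerebellum passed in all 11 alternatives. The replicate block changed no other call of a member.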
